A study of Mus musculus with 6 samples.

Results

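The genes described here are 7 keratins that mark the 2 epithelial layers of the mammary gland: Krt5, Krt14 and Krt17 for the outer, basal layer, and Krt7, Krt8, Krt18 and Krt19 for the inner, luminal layer. They were chosen by symbol, and 6 of the 7 were among the 11417 genes of the deposited table. Krt19 was not listed. Poly(A) RNA was sequenced from 3 established mouse mammary lines, BC44, HC11 and C57MG, with 2 libraries per line and 6 in all. All 3 lines carry the label mammary epithelial and were untreated, grown on plastic and harvested 2 days after plating. Each line had its own medium. RPMI supplemented with insulin at 5 µg/ml was used for BC44, and the same with epidermal growth factor at 10 ng/ml for HC11. C57MG grew in DMEM supplemented with insulin at 10 µg/ml, and all 3 media held 10% serum. The effects of line and medium therefore cannot be told apart. The labels do not say whether the 2 libraries of a line came from separate cultures, so p-values measure only the spread between these libraries.

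Keratins are the intermediate filament proteins of epithelial cells. A filament is built from heterodimers of 1 acidic type I and 1 basic type II keratin, so a cell that forms keratin filaments normally makes members of both types. Krt5 (type II) pairs with Krt14 (type I) in the basal cells of stratified and glandular epithelia, where Krt17 (type I) is a further partner. Krt8 (type II) and Krt18 (type I) form the pair of simple and luminal epithelia, with Krt7 (type II) and Krt19 (type I) as further members. In GENCODE release M21 the type II genes Krt5, Krt7 and Krt8 lie on chromosome 15, and the type I genes Krt14 and Krt17 on chromosome 11. Krt18 is a type I gene on chromosome 15.

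Levels are in RPKM, a read number scaled to gene length and to library size. The gene lengths used are not given, so comparisons, sums and ratios between genes hold only as far as those lengths do. For Krt7 the exonic length in GENCODE release M21 was 7049 bases and the longest coding transcript 4094. The depth was estimated from the steps between low values at 14230000 to 18440000 reads per library. A floor of 3 estimated reads was used as the detection limit, and read numbers cover counting error only. Differences between lines are on the scale of log2(RPKM + 1), which understates those of low genes. They were tested with limma over 10759 genes, with Benjamini-Hochberg adjusted p-values and a threshold of 0.05. Of the 7 genes, 6 passed the filter on low values, Krt7, Krt8 and Krt18 through the HC11 libraries alone. Some genes of the other lists likewise passed through 1 line alone, so the counts of those lists are partly set by the filter.

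The basal keratins were among the most abundant transcripts of BC44 and HC11. Krt14 was at 2716 and 2736 RPKM in BC44 replicates 1 and 2, at 1409 and 1073 in HC11, and at 118 and 64.8 in C57MG. It ranked as gene 2 of the table in both BC44 libraries and as genes 11 and 20 in the HC11 libraries. The 3 lines did not overlap for Krt14, in the order BC44, HC11, C57MG, where 73.0%, 87.9% and 86.2% of all tested genes did not overlap for BC44 with HC11, BC44 with C57MG and HC11 with C57MG. Krt17 was at 1923 and 1820.2 RPKM in BC44, at 1261 and 1281 in HC11, and at 24.7 and 11.4 in C57MG. The order of the lines was the same as for Krt14, and the HC11 libraries were within 1.02-fold of each other.

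Krt5, the type II partner of Krt14, was at 2012 and 1828 RPKM in BC44 and at 1000.1 and 534 in HC11. In C57MG it was at 16.0 RPKM in replicate 1 and at 0.148 RPKM, an estimated 5 reads, in replicate 2. The libraries of the 3 lines did not overlap, but the replicates of HC11 differed 1.87-fold and those of C57MG 108-fold. In HC11 the lower Krt5 level in replicate 2 came with a 1.31-fold lower Krt14 level, whereas Krt7 was 1.40-fold higher in that library. The other listed members, Krt17, Krt8 and Krt18, were 1.02-fold, 1.03-fold and 1.06-fold higher there.

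**Figure D1:**
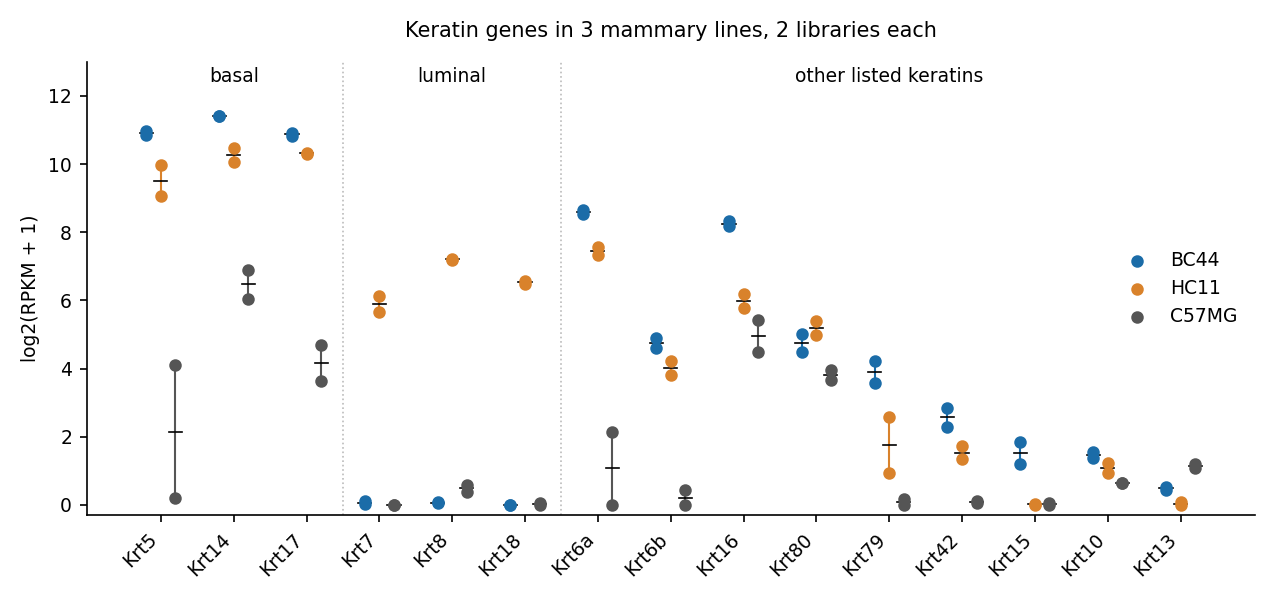
Level of each listed keratin gene as log2(RPKM + 1) in BC44, HC11 and C57MG. Each point is 1 library, the vertical line joins the 2 libraries of a line and the short bar is their mean. Krt5, Krt14 and Krt17 were high in BC44 and HC11, Krt7, Krt8 and Krt18 stood above 5 in HC11 and below 1 elsewhere, and Krt5 and Krt6a differed most between the C57MG replicates.

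The luminal keratins were found at substantial levels in HC11 and not in the other lines. Krt8 was at 144 and 148 RPKM in HC11, at 0.038 and 0.064 in BC44, and at 0.307 and 0.503 in C57MG. The BC44 values correspond to an estimated 1 and 2 reads and the C57MG values to 11 and 15. Krt18, the type I partner of Krt8, was at 88.5 and 94.1 RPKM in HC11, while BC44 (both libraries) and C57MG replicate 1 had it at 0. In C57MG replicate 2 it was at 0.046 RPKM, an estimated 1 read. In BC44 the 3-read floor of Krt18 was 0.144 and 0.120 RPKM, so a lower level there was not detectable. Krt7 was at 49.1 and 68.9 RPKM in HC11, at 0.078 and 0.016 in BC44, and listed at 0 in both C57MG libraries. Its BC44 values correspond to an estimated 8 and 2 reads.

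The HC11 excess of these genes was large in each case. Krt18 was at least 692-fold higher in HC11 than the mean floor of the BC44 libraries. Against C57MG, with 1 estimated read in 2 libraries, the ratio of Krt18 reads at equal depth was 4366, with an exact 95% counting interval of 783 to 172487. Krt7 was at least 2301-fold higher in HC11 than the mean floor of the C57MG libraries, and 1298-fold (706 to 2708) higher than in BC44. For Krt8 the ratio was 3041 (1040.2 to 14748) over BC44 and 367 (251 to 563) over C57MG. All intervals are exact 95% intervals on estimated reads.

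Promoters are shown for 4 of the 5 members found in the RefSeq promoter table (build GRCm38.p6). The luminal members shown were high in HC11 alone, while Krt5 was high in both BC44 and HC11. The submitters' processing notes name build mm9, so these coordinates are those of the table and not of the deposited values. Each window runs from 250 bases before to 50 bases after the annotated start of the gene. Krt17 and Krt19 had no entry. The entry for Krt14 is not shown, since its start lies 1480 bases inside the gene, counted from the outermost start in the same build. Capitals mark matches on either strand to 5 motifs. The TATA box was searched as TATAAA, and the GC box that Sp1 factors bind was searched as GGGCGG. The Grainyhead-like site was searched as AACCNGTT and the AP-2 site as GCCNNNGGC. The AP-1 site was searched as TGANTCA. Krt8 is at chr15:102004293-102004592 (minus strand), Krt18 at chr15:102027966-102028265 (plus), Krt7 at chr15:101412153-101412452 (plus) and Krt5 at chr15:101712856-101713155 (minus).
Krt8: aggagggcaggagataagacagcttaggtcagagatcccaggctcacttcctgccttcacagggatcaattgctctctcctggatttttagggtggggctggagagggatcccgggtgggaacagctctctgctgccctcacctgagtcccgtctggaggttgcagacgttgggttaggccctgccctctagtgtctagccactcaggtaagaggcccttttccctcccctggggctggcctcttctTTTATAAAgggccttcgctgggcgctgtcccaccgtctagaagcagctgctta
Krt18: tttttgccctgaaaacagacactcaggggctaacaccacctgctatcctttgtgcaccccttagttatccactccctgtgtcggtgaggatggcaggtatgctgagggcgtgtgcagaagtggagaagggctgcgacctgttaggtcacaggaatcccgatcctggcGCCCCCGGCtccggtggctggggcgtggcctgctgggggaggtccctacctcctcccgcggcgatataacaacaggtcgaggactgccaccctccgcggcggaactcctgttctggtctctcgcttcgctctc
Krt7: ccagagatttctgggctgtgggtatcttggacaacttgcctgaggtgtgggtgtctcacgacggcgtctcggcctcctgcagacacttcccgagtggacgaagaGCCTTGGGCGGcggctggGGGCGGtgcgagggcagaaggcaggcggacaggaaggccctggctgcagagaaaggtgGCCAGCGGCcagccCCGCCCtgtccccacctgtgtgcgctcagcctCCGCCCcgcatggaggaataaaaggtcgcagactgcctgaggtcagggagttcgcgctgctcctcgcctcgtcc
Krt5: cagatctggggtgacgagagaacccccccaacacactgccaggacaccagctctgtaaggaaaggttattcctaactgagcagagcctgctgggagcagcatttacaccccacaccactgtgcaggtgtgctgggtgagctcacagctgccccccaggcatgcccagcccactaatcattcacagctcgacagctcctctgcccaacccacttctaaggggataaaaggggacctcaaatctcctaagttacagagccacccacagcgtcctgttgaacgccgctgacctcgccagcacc

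Krt7 held 4 GC boxes and 2 AP-2 matches, and the first GC box overlaps the first AP-2 match. Krt18 held 1 AP-2 match and Krt8 2 overlapping TATAAA matches, 1 on each strand. The Krt8 matches begin at -3 and -1 from the annotated start and lie across it. Krt5 held none of the 5 motifs in this window. None of the 4 held the Grainyhead-like or the AP-1 letters. Of 32851 promoters of this length in the table, 35.7% held the GC box, 16.6% the AP-2 letters, 13.6% TATAAA, 7.81% the AP-1 letters and 2.09% the Grainyhead-like letters. A match is only a run of letters, and its absence says nothing about a factor.

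Between BC44 and HC11 the luminal genes were higher in HC11 and 1 basal gene was higher in BC44. Of the 6 tested members 4 passed (background 47.7% of all tested genes). Krt7, Krt8 and Krt18 could be tested only because they were high in HC11, so nothing is read from their count. Krt14 was the member higher in BC44, against 24.7% of all genes called in that direction, and Krt7, Krt8 and Krt18 were higher in HC11, against 23.0%. The difference for Krt14 was 1.15 (SE 0.26, adjusted p 0.00863), or 2.20-fold in mean RPKM. The fitted differences for Krt8, Krt18 and Krt7 were -7.13, -6.53 and -5.82. Nothing is read from their limma adjusted p-values, 1.303e-07 to 8.507e-07, since the filter passed these genes only through HC11. Krt5 and Krt17 were 2.50-fold and 1.47-fold higher in BC44 by mean RPKM and their libraries did not overlap, as for 73.0% of all tested genes. Neither passed, with differences of 1.39 (SE 1.05, adjusted p 0.315) for Krt5 and 0.56 (SE 0.29, 0.150) for Krt17.

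These 2 outcomes rested on the C57MG libraries, which enter the shared estimate of the spread. In a fit of only the 4 BC44 and HC11 libraries the adjusted p was 0.00856 for Krt5 and 0.00889 for Krt17, with the same differences. Without C57MG replicate 1 it was 0.00343 and 0.00211, and without C57MG replicate 2 0.00347 and 0.00223. The Krt14 call was lost without BC44 replicate 1 (adjusted p 0.0544) or replicate 2 (0.0547). Without either HC11 library 1 member passed, because Krt7, Krt8 and Krt18 then reached 1 RPKM in only 1 library and were not tested.

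**Figure D2:**
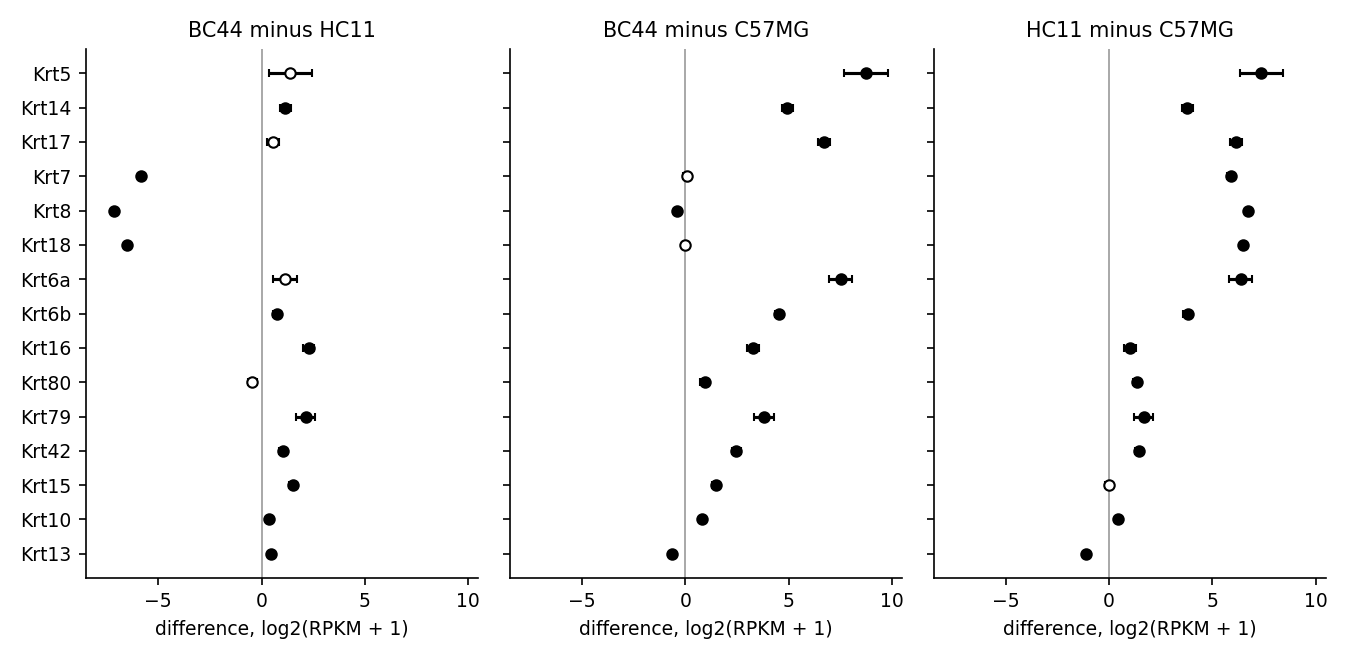
Difference between lines in log2(RPKM + 1) for each listed keratin, with bars of 1 standard error from limma. Filled points passed an adjusted p of 0.05 and open points did not. Krt7, Krt8 and Krt18 lie far to the left in BC44 minus HC11 and near 0 in BC44 minus C57MG, and Krt5 has the widest bars.

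Against C57MG the basal genes were higher in both other lines. Between BC44 and C57MG 4 of the 6 tested members passed (background 71.7%), 3 higher in BC44 (37.5% of all genes) and 1 higher in C57MG (34.1%). Krt14 was 29.8-fold, Krt17 104-fold and Krt5 237-fold higher in BC44 by mean RPKM. The differences were 4.95 (SE 0.26) for Krt14, 6.71 (SE 0.29) for Krt17 and 8.76 (SE 1.05) for Krt5, with a largest adjusted p of 0.000175. Krt5 ranged from 6.82 to 10.71 according to whether C57MG replicate 2 or replicate 1 was left out. The member higher in C57MG was Krt8, by 0.42 (adjusted p 0.0101) on an estimated 26 reads against 3. Its call was lost without C57MG replicate 2 (adjusted p 0.0881). Krt7 differed by 0.07 (adjusted p 0.729). For Krt18 both lines were at or under the floor and no difference is given.

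Between HC11 and C57MG the 3 basal members passed and were higher in HC11 (background 70.5% in either direction, 37.4% in that direction). By mean RPKM Krt14 was 13.6-fold, Krt17 70.4-fold and Krt5 94.8-fold higher in HC11. The fitted differences ran from 3.80 for Krt14 to 7.37 for Krt5. The Krt5 difference was 5.425 without C57MG replicate 2 and 9.32 without replicate 1. Krt7, Krt8 and Krt18 passed as well and were higher in HC11, again tested only through their HC11 values. The median difference of the 3 basal members was 6.155 beside 0.03 for all tested genes. In BC44 against HC11 that median was 1.15 beside 0.02, and in BC44 against C57MG it was 6.71 beside 0.04. These contrasts share libraries and are not independent. Without either HC11 library the luminal members were not tested, and 3 members passed in HC11 against C57MG in place of 6.

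Type I and type II RNA were compared as sums over the members, with Krt5, Krt7 and Krt8 for type II and Krt14, Krt17 and Krt18 for type I. In BC44 the type II sum was 2012 and 1828 RPKM and the type I sum 4639 and 4556, a ratio of 0.434 and 0.401. In HC11 the sums were 1194 and 751 for type II and 2758 and 2448 for type I, a ratio of 0.433 and 0.307. In both lines type I RNA exceeded type II RNA, and HC11 replicate 1 had nearly the ratio of BC44 replicate 1. In C57MG the type II sum was 16.4 and 0.651 RPKM and the type I sum 143 and 76.2, a ratio of 0.115 and 0.00855. The ratio in C57MG lay below all 4 libraries of the other lines. The ratios are given as values and no test was run on them. With 2 libraries a line, the smallest p that exact permutation allows is 0.33.

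Partner by partner, the BC44 libraries had Krt5 over Krt14 at 0.741 and 0.668, and the HC11 libraries at 0.710 and 0.498. In C57MG this ratio was 0.136 in replicate 1 and 0.00229 in replicate 2. Krt8 over Krt18 was 1.63 and 1.57 in HC11, the one line with both genes well above the floor. The type II luminal members Krt7 and Krt8 summed to 193 and 217 RPKM in HC11, against 88.5 and 94.1 for Krt18, with Krt19 not listed. The luminal members made up 7.13% and 9.72% of the RPKM of the listed members in HC11, 0.193% and 0.715% in C57MG, and 0.00174% and 0.00125% in BC44. Bulk RNA cannot tell fewer cells that make a keratin from less RNA per cell.

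The other listed keratins were mostly higher in BC44 than in both other lines. Beyond the 6 listed members the table held 9 keratin genes, 4 of type II and 5 of type I, and all 9 were tested. Krt15 passed the filter on low values through BC44 alone and Krt13 through C57MG alone, so nothing is read from their part in the counts. In BC44 against HC11 7 of the 9 were higher in BC44 and none in HC11, beside 24.7% and 23.0% of all tested genes. In BC44 against C57MG 8 were higher in BC44 and 1 in C57MG, beside 37.5% and 34.1%. In HC11 against C57MG 7 were higher in HC11 and 1 in C57MG, beside 37.4% and 33.2%. Krt6a and Krt16, a type II and a type I keratin known for their induction in stressed and hyperproliferative epidermis, were the most abundant of them in BC44 and HC11. Krt6a was at 372 and 399 RPKM in BC44, at 158 and 189 in HC11, and at 3.43 and 0 in C57MG. Krt16 was at 288 and 322 RPKM in BC44, at 53.6 and 71.8 in HC11, and at 42.3 and 21.4 in C57MG. The 3 lines did not overlap for either gene. Krt16 was higher in BC44 than in HC11 by 2.28 (SE 0.28, adjusted p 0.000551), while Krt6a differed by 1.15 (SE 0.57, adjusted p 0.140).

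Several low keratins separated the lines as well. Krt15, a type I keratin of basal progenitors, was at 2.63 and 1.30 RPKM in BC44 and at or under the floor in HC11 and C57MG. Krt42 (type I) was at 5.04 ± 1.60 RPKM in BC44 (SD, n = 2), 1.91 ± 0.544 in HC11 and 0.0655 ± 0.0403 in C57MG. Krt79 (type II) was at 17.6 and 11.0 RPKM in BC44 and at 4.98 and 0.932 in HC11. Krt6b, a close relative of Krt6a, was at 26.1 ± 4.07 RPKM in BC44 and 15.3 ± 3.20 in HC11 (SD, n = 2). Krt10, the type I keratin of suprabasal epidermis, stayed between 0.555 and 1.93 RPKM in the 6 libraries. Krt13 (type I) was the keratin higher in C57MG, at 1.12 and 1.28 RPKM against 0.451 and 0.346 in BC44 and 0.059 and 0 in HC11.

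Krt80, a further type II keratin, varied less between the lines than the other type II genes. It was at 21.4 and 31.2 RPKM in BC44, at 30.8 and 40.7 in HC11, and at 14.6 and 11.7 in C57MG. BC44 and HC11 overlapped, and C57MG was lower than HC11 by 1.37 (SE 0.20, adjusted p 0.000593). In C57MG replicate 2 Krt80 made up 94.7% of all type II keratin RPKM, against 41.9% in replicate 1, 2.20% and 4.07% in HC11, and 0.876% and 1.36% in BC44. With all 15 listed keratins summed, the BC44 libraries had type II over type I at 0.496 and 0.470, the HC11 libraries at 0.498 and 0.396, and the C57MG libraries at 0.187 and 0.125. All listed keratins held 2.25% and 2.16% of the summed RPKM in BC44 and 1.23% and 1.02% in HC11. The share in C57MG was 0.0686% and 0.0351%.

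**Figure D3:**
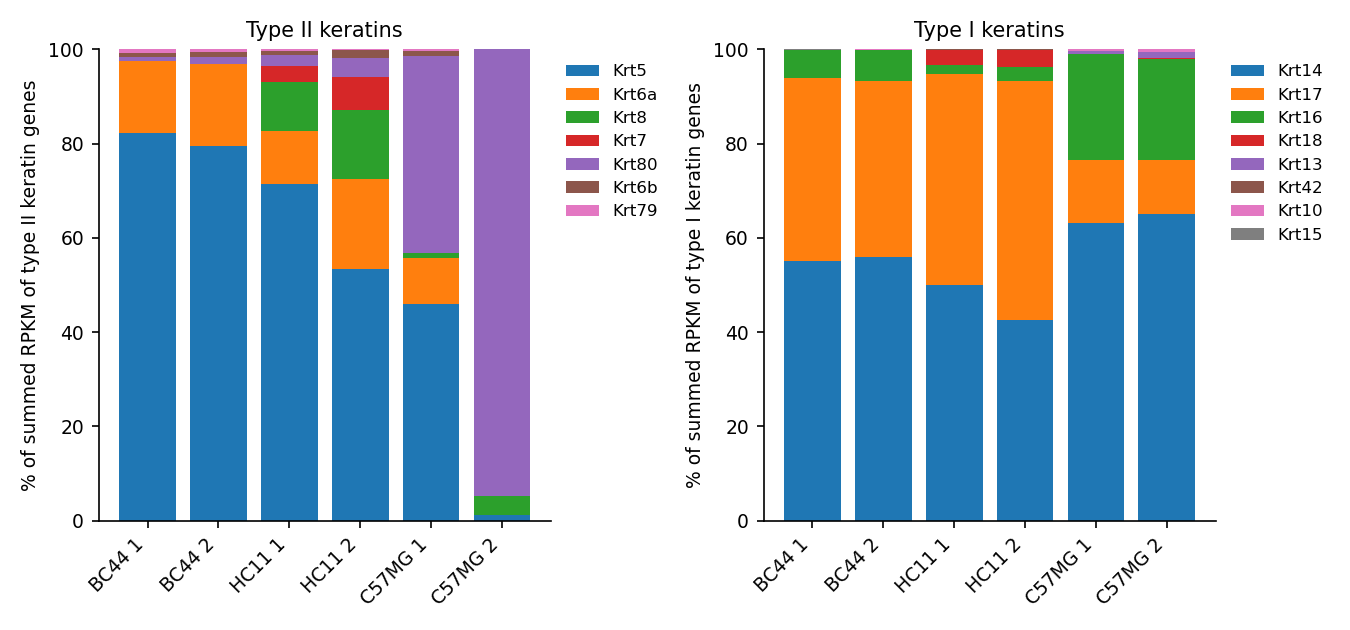
Share of each keratin in the summed RPKM of its own type, in percent, for the 6 libraries (line and replicate number). Krt5 led type II in BC44 and HC11, Krt80 filled 94.7% of type II in C57MG replicate 2, and Krt14 with Krt17 and Krt16 made up nearly all type I RNA in each library.

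The basal keratins of C57MG differed between its replicates, and not all by the same share. As a share of the BC44 mean, C57MG replicate 1 held 0.836% for Krt5, 0.891% for Krt6a, 0.922% for Krt79 and 1.33% for Krt6b. Replicate 2 held 0.00771% for Krt5 and none for the other 3. Among the other genes of the table, 49 had at least 20 RPKM in each BC44 and HC11 library and under 0.2% of the BC44 mean in C57MG replicate 2, limits chosen after the values were seen. Their low value in replicate 2 is part of that choice. In C57MG replicate 1 their share of the BC44 mean had a median of 0.821% and ran from 0.573% to 1.27%. In replicate 1 Krt5, Krt6a and Krt79 lay inside this range and Krt6b just above it. Whether the low C57MG values of these keratins and of the 49 genes have a common source was not tested.

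Krt14, Krt16 and Krt17 kept a level in C57MG replicate 2 of 64.8, 21.4 and 11.4 RPKM, or an estimated 1748, 514 and 271 reads. These were 2.38%, 7.01% and 0.608% of the BC44 means, against 4.33%, 13.9% and 1.32% in replicate 1. In that library 3 type I keratins were thus present with Krt5 at 5 estimated reads and Krt6a at 0. In C57MG Krt14 over Krt17 was 4.77 and 5.69, above the 1.41 and 1.50 of BC44 and the 1.12 and 0.838 of HC11.

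**Figure D4:**
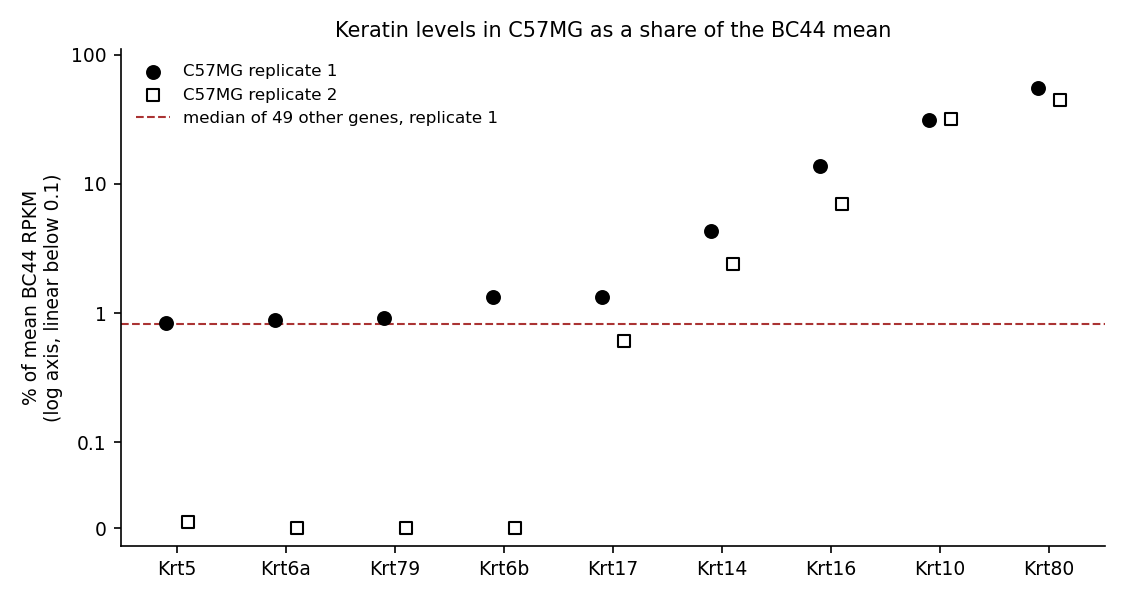
Level in each C57MG library as a percentage of the mean BC44 RPKM, on a log axis that is linear below 0.1. Circles are replicate 1, squares replicate 2, and the dashed line is the 0.821% median of 49 other genes in replicate 1. Krt5, Krt6a and Krt79 lie near that line in replicate 1 and at or near 0 in replicate 2, while Krt14, Krt16, Krt10 and Krt80 lie above it in both.

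Keratin genes share sequence, and how shared reads were assigned is not given in the sources used here. Of the windows of 50 bases in the longest coding transcript of each gene, 14.4% of Krt14, 4.0% of Krt17 and 12.2% of Krt5 also occurred in a transcript of another gene. For Krt14 most were shared with Krt16 (11.4%), for Krt17 with Krt14 (3.66%) and for Krt5 with Krt6a (6.98%). The share was 62.0% for Krt6a and 50.1% for Krt6b, mostly with each other, and 37.6% for Krt16, mostly with the gene Gm11597. For Krt8 it was 29.7%, nearly all with its pseudogene Krt8-ps (26.9%), and for Krt18 and Krt7 0.720% and 0.222%. The low Krt8 value and the Krt16 level in C57MG, and the split between Krt6a and Krt6b, are uncertain for this reason.

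The label mammary epithelial was checked against other markers. C57MG had low keratins, and Epcam, an epithelial adhesion gene, was at 0.949 and 0 RPKM there against 92.1 to 242 in the other lines. Of the 15 tested fibroblast markers 13 were higher in C57MG than in BC44 and 13 higher than in HC11, beside 34.1% and 33.2% of all tested genes. Zeb1, Fbn1 and Twist2 were among those that passed the filter on low values only through C57MG, so nothing is read from these counts. The summed level of the fibroblast markers was 4719 and 4909.6 RPKM in C57MG, 365 and 417 in BC44, and 314 and 357 in HC11. S100a4 alone held 3684 and 3794 RPKM of the C57MG sums. The median difference of the list against C57MG was -3.11 for BC44 and -3.16 for HC11. These medians are the values of Fbn1 and Zeb1 and depend on the same filter, so nothing is read from them either. Postn went the other way, with line means of 2.42 RPKM in C57MG, 81.3 in BC44 and 61.0 in HC11, and Dcn was listed at 0 in both C57MG libraries. Of the 11 tested basal markers other than keratins 5 were higher in BC44 and 3 in C57MG, beside 37.5% and 34.1%. Their sums, 527 and 523 RPKM in C57MG, 567 and 575 in BC44, and 622 and 657 in HC11, hide opposite differences. The line means of Cdh3 were 111 RPKM in BC44 and 0.528 in C57MG, and those of Acta2 1.46 and 120. Of the 7 tested luminal markers other than keratins 6 were higher in HC11 and 1 in BC44, beside 23.0% and 24.7%, with a median difference of -2.09. Only 9 of the 21 luminal markers sought were listed. These 9 summed to 709 and 711 RPKM in HC11, 644 and 671 in BC44, and 262 and 237 in C57MG. The marker higher in BC44 was Cd24a, which held 517 and 571 RPKM of the BC44 sums. Cldn3, a tight junction gene, was at 80.4 and 68.9 RPKM in HC11 and listed at 0 in both other lines, so it was tested only through HC11. Ehf was at 6.99 and 8.46 RPKM in HC11 and at 1.12 and 0.966 in BC44, so it too passed the filter only with HC11. Its difference is the median of the list, so nothing is read from the luminal count or median. Postn, Dcn, Cd24a and Ehf were chosen for mention after their values were seen. The part of cell type makeup in the keratin differences was not tested.

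Genes that tie keratin filaments to junctions and to the cytoskeleton were mostly lower in C57MG. Of 9 tested linker genes 7 were higher in BC44 than in C57MG and 2 in C57MG, beside 37.5% and 34.1% of all tested genes, with a median difference of 4.71 beside 0.04. In HC11 against C57MG 6 were higher in HC11 and 1 in C57MG (37.4% and 33.2%), and in BC44 against HC11 4 in BC44 and 3 in HC11 (24.7% and 23.0%). Dsp, the desmoplakin that anchors keratins at desmosomes, was at 144 and 146 RPKM in BC44, at 68.2 and 53.9 in HC11, and at 1.17 and 0.013 in C57MG. Jup, the plakoglobin of the same plaque, was at 193 and 185 RPKM in BC44, at 112 and 91.9 in HC11, and at 1.54 and 0.020 in C57MG. Pkp1 and Pkp3, plakophilins of the plaque, differed between BC44 and C57MG by 5.97 and 5.04. Plec and Pkp2 were the 2 linkers higher in C57MG than in BC44, and both were chosen for mention after their values were seen. Plec, the linker plectin, was at 72.5 and 75.2 RPKM in C57MG against 19.4 and 17.7 in BC44. Pkp2, the plakophilin also found outside stratified epithelia, was at 7.15 and 7.54 RPKM in C57MG and 1.31 and 1.29 in BC44. In HC11 Pkp2 was at 8.43 and 7.28 RPKM, near its C57MG level.

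Of 8 tested keratin-binding and turnover genes 6 were higher in BC44 than in C57MG and 2 in C57MG, beside 37.5% and 34.1% of all tested genes. In BC44 against HC11 2 were higher in BC44 and 1 in HC11, beside 24.7% and 23.0%. Sfn, the 14-3-3 sigma protein that binds phosphorylated keratins, was at 437 and 468 RPKM in BC44, at 151 and 129 in HC11, and at 6.62 and 3.30 in C57MG. Hspb1, a small heat shock protein, was at 768 and 919 RPKM in BC44 and 472 and 504 in HC11. In C57MG it was at 6.92 and 0.126, a gap between replicates like that of Krt5. Sqstm1, the p62 protein of keratin inclusions, was higher in C57MG than in BC44 by 2.01 (adjusted p 5.404e-05), and Dnajb6, a Krt18-binding co-chaperone, was lower there by 1.34 (4.697e-06).

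Other intermediate filament genes differed in both directions. Of 8 tested, 4 were higher in C57MG than in BC44 and 2 in BC44, beside 34.1% and 37.5% of all tested genes, so the share called was near the 71.7% of all genes. Vim, the vimentin of mesenchymal cells, was at 2708 and 2282 RPKM in C57MG, 15.2 and 49.4 in BC44, and 23.1 and 26.7 in HC11. Lmna, a nuclear lamin, was at 295 and 272 RPKM in C57MG and between 121 and 141 in the other 4 libraries. Nes was highest in HC11, at 2.66 and 3.00 RPKM, and Synm in BC44, at 2.31 and 2.86. Each passed the filter on low values only through that line, as Prph and Sync did through C57MG. Nothing is read from their part in the counts. Vim thus exceeded all keratins together in C57MG, whose summed RPKM was 222 and 112, while the keratin sum exceeded Vim in BC44 and HC11.

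Transcription factors known to act on keratin genes were mostly lower in C57MG. Of 14 tested, 12 were higher in BC44 than in C57MG and 1 in C57MG, beside 37.5% and 34.1% of all tested genes. In HC11 against C57MG 11 were higher in HC11 and 2 in C57MG (37.4% and 33.2%), and in BC44 against HC11 7 were higher in BC44 and 5 in HC11 (24.7% and 23.0%). Klf5 was at 26.3 and 31.8 RPKM in BC44, at 17.4 and 24.0 in HC11, and at 0.096 and 0 in C57MG. Grhl2 differed between BC44 and C57MG by 4.46 and Ovol1 by 3.29. Elf3, an ETS factor of simple epithelia, was higher in HC11 than in BC44 by 1.23 (adjusted p 0.00544). Trp63 and Gata3 were chosen after their values were seen. Trp63, the p63 regulator of basal keratins, was at 24.4 and 25.6 RPKM in BC44, at 20.5 and 17.8 in HC11, and at 5.86 and 6.98 in C57MG. Gata3, a luminal regulator, was at 0.034 and 0.086 RPKM in BC44, at 5.36 and 6.37 in HC11, and at 7.32 and 8.43 in C57MG, so C57MG held Gata3 RNA with Krt8 and Krt18 near 0.

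**Figure D5:**
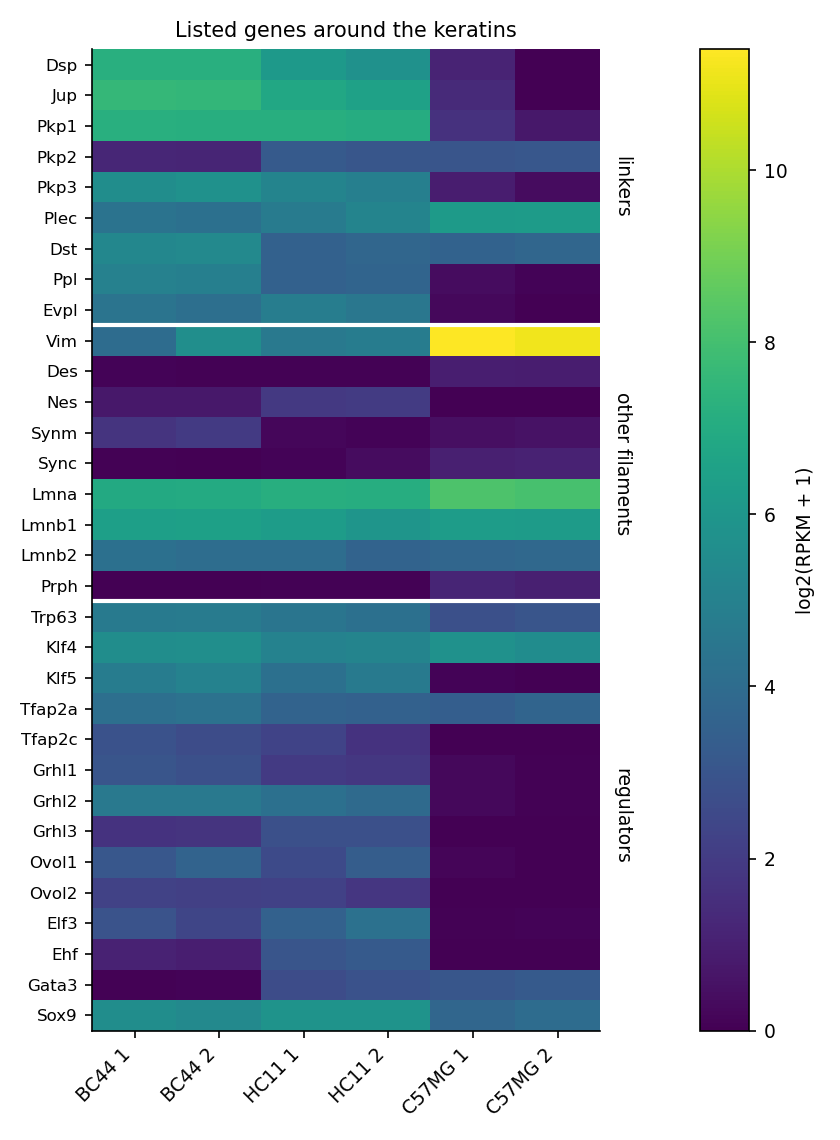
Heat map of log2(RPKM + 1) for the listed linker, intermediate filament and regulator genes in the 6 libraries (line and replicate number). Most linkers and regulators are dark in C57MG, Vim is brightest there, and Gata3 is dark in BC44 alone.

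Genes with a pattern most like the main members were found by the root-mean-square difference of log2(RPKM + 1), each gene centred on its own mean, over 6 libraries that form only 3 lines. For Krt18 the nearest genes outside the keratins were Cldn3 (0.16), Il24 (0.40) and Serpine2 (0.44), and for Krt8 Serpine2 (0.30), Cldn3 (0.38) and Il24 (0.40). Krt8 and Krt18 differed from each other by 0.25, so only Cldn3 among tested non-keratin genes lay closer to Krt18 than Krt8 did. Cldn3, Il24 and Serpine2 were at 0.544 RPKM or less in BC44 and C57MG and passed the filter only through HC11. Their nearness to Krt8 and Krt18 thus rests mostly on a similar HC11 level. For Krt14 the nearest genes outside the keratins were Myh14 (0.16), Esrp2 (0.16) and Epha1 (0.25). These 3 genes were at 0.434 RPKM or less in C57MG, a level at which the scale understates differences. Their nearness to Krt14 therefore does not mean a like fold difference. Krt14 and its partner Krt5 differed by 1.96, and Krt5 was the lower of the pair in C57MG. For Krt5 the genes given are Hspb1 (0.53) and Igfbp3 (0.90), and the nearest keratin was Krt6a (0.81). Igfbp3 was at 2.72 and 0.041 RPKM in C57MG, a gap between replicates like that of Krt5.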

How the data were processed

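Values are the RPKM that the authors deposited, per the name of the table, 1 per gene and library and rounded to 3 decimals. The submitters' processing notes name STAR and build mm9. The read counter, annotation, gene lengths, scaling total and gene filter are not given in the sources used here. Depth was estimated by finding the total that put low values, times exonic length in GENCODE release M21, nearest to whole reads. Between 71.9% and 77.1% of 151 to 260 low values per library then lay within 0.1 of a whole read, against 20% by chance, so lengths differ for some genes and reads are estimates.

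The test was limma 3.58.1 (R 4.3.3; eBayes with trend) applied to log2(RPKM + 1) of the 10759 genes with at least 1 RPKM in at least 2 libraries. All 6 libraries were in the fit, without covariates. P-values were two-sided and Benjamini-Hochberg adjusted within each contrast. The scripts were tested on simulated data. Other steps used scipy 1.17.1, numpy 2.4.6, matplotlib 3.10.9 and pandas 2.3.3 under Python 3.11.15.

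Named genes were the members, other keratins whose mean reached 1 RPKM in a line, at most 4 tested genes per list with the largest difference, and the 3 genes nearest in pattern to Krt5, Krt14, Krt8 and Krt18. A gene that this rule names for Krt5 is not reported here. The members and lists were chosen with earlier results of these data known. The 15 alternatives left out each library in turn, added a replicate block, used robust variance or no trend, fitted only the 4 libraries compared, scaled by median ratio or quantiles, filtered at a 5 RPKM mean or not at all, or set the pseudocount to 0.1.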

Additional observations from a re-analysis of the deposited data

How the results depend on the processing

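Of 17 member differences, 13 kept their direction and side of the threshold in all alternatives that could be run, and the other 4 are given with their values in the report. No member difference reversed. Krt7, Krt8 and Krt18 could not be tested without an HC11 library, since fewer genes then passed the filter. Leaving out each library gave 1 to 6 passing members in BC44 against HC11 (4 with all libraries), 3 to 4 in BC44 against C57MG (4) and 3 to 6 in HC11 against C57MG (6). The log2 ratio of type II to type I RPKM in BC44 was -1.26 over the members and -1.05 over all listed keratins, where the alternative itself adds genes. In C57MG this ratio was -3.13 without replicate 2 and -6.87 without replicate 1. The labels do not say whether libraries with the same replicate number have anything else in common. Same-numbered deviations correlated across genes at 0.354 for BC44 with HC11, -0.039 for BC44 with C57MG and 0.038 for HC11 with C57MG. With the replicate block 5350, 7875 and 7721 genes passed against 5129, 7713 and 7590 without it, in that order, and 4, 4 and 6 members as before. Depth limits Krt7, Krt8 and Krt18 in BC44 and C57MG, where they rest on few estimated reads.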
